A study of Homo sapiens with 6 samples.

Results

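The 32 genes described here encode the enzymes that burn fatty acids in mitochondria and peroxisomes, the enzymes of ketone body metabolism, and 3 regulators of fuel choice. They were taken by symbol from a table of 58735 genes, and each symbol matched exactly 1 row. The labels name the cells as Hep3B, an established human liver cancer line, though defining markers of it were absent (given with the library checks). In 3 libraries HYOU1, the gene of a big heat shock protein 70 relative that folds proteins in the endoplasmic reticulum, was targeted with a short hairpin RNA (shRNA), and 3 libraries had a control shRNA. The labels give no time point, no hairpin sequence and no statement that the 3 replicates were separate cultures, so the p-values here weigh the scatter among libraries, and that scatter may be technical only. All values are FPKM, fragments scaled by gene length and by library total. Levels of different genes can be set side by side only as far as that length fits the transcripts made, which was not tested.

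Long-chain fatty acids enter the mitochondrial matrix as carnitine esters, made by CPT1 at the outer membrane, carried across by SLC25A20 and turned back into acyl-CoA by CPT2. Each turn of beta-oxidation then runs through an acyl-CoA dehydrogenase, a hydratase, a second dehydrogenase and a thiolase, and the electrons of the first step pass through the electron transfer flavoprotein (ETF) to ubiquinone. In liver the acetyl-CoA that results feeds ketone body synthesis, whereas other tissues take ketone bodies back into acetyl-CoA with OXCT1 and ACAT1. The nuclear receptor PPARA and the coactivator PPARGC1A (PGC-1 alpha) switch these genes on in fasting, together with PDK4, a kinase that shuts pyruvate dehydrogenase and so spares glucose.

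HYOU1 itself was at 2.35, 2.32 and 2.37 FPKM in the HYOU1 shRNA libraries and at 37.6, 58.2 and 59.5 FPKM in the control libraries, which matched the labels. Libraries held 16893091 to 18233240 fragments. Of 16 hepatocyte markers only HNF4A reached a mean of 1 FPKM, and no library held a fragment of ALB, APOA2, APOB, APOH or TTR. The summed level of the 16 was 2.52 to 2.96 FPKM in HYOU1 shRNA and 4.14 to 5.30 FPKM in control libraries, with SERPINA1 higher (0.478 FPKM in HYOU1 shRNA and 0.0880 FPKM in control libraries on average) and FGA and FGB lower (0.164 and 0.150 FPKM in HYOU1 shRNA, 0.915 and 1.34 FPKM in control libraries). SERPINA1, FGA and FGB were below the filter and not tested, and held as few as 6, 9 and 5 fragments in a library. AFP had 3 fragments over all libraries. Hep3B is known for making albumin and AFP, so the values refer to cells labelled Hep3B that lack defining markers of that line, whose identity was not tested and is in doubt. Biliary markers, of which 5 of 7 reached 1 FPKM, summed to 67.1 to 72.1 FPKM in HYOU1 shRNA and 56.8 to 62.8 FPKM in control libraries. Markers of fibroblasts, of which 4 of 7 reached it and COL1A2 was at 0, summed to 10.5 to 11.1 FPKM in HYOU1 shRNA and 10.4 to 12.4 FPKM in control libraries, although COL1A1 rose by 1.09 and DCN fell by 1.35 on the log2 scale (limma, adjusted p = 0.0159 and 0.00708). The 6 immune markers (PTPRC, CD3E and LYZ at 0) summed to 0.611 to 0.941 FPKM in HYOU1 shRNA and 0.603 to 1.83 FPKM in control libraries, and the 5 endothelial ones (KDR at 0) to 0.179 to 0.222 FPKM in HYOU1 shRNA and 0.514 to 0.655 FPKM in control libraries. Their part in the results was not tested, and fewer cells of a kind cannot be told apart from less RNA per cell.

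Control replicate 1 stood apart from the other control libraries in a way that, over the members, partly followed GC content. Over the 30 members that were tested, its deviation from control replicates 2 and 3 ran between -0.79 and 0.89 on the log2 scale and correlated with GC content at Pearson's r of -0.78, a description across genes that share the same 3 libraries. Single genes outside the members could depart from this pattern. The biliary marker KRT19, with 61.8% GC, was at 11.6 FPKM in control replicate 1 and at 2.86 and 2.39 FPKM in control replicates 2 and 3. Mitochondrial transcripts made up 3.39% to 3.84% of fragments in HYOU1 shRNA libraries, against 7.59% in control replicate 1 and 5.17% and 4.96% in control replicates 2 and 3. Results are therefore also given with control replicate 1 left out, and with a correction for GC content, which would also remove a real difference that follows GC.

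**Figure D1:**
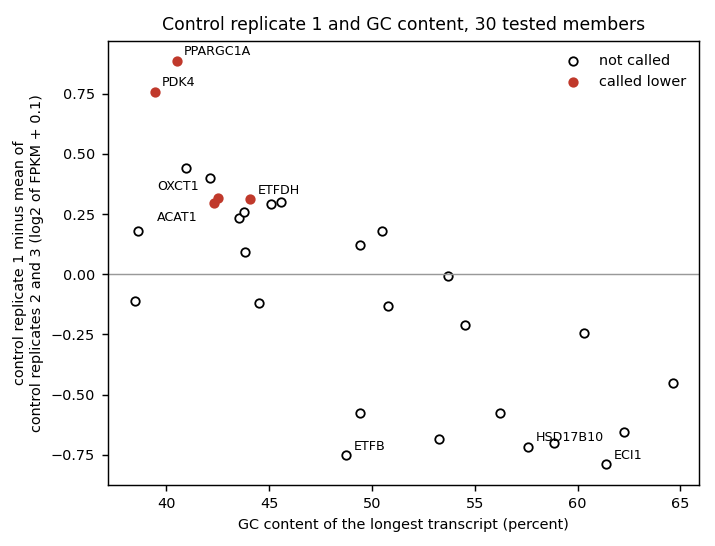
Deviation of control replicate 1 from the mean of control replicates 2 and 3 (log2 of FPKM + 0.1, vertical axis) against GC content of the longest transcript (percent, horizontal axis) for the 30 tested members; filled points are the 5 members called lower. All 5 lie above 0, PPARGC1A (0.89) and PDK4 (0.76) highest, and ECI1 (-0.79) lies lowest.

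The pathway was expressed in both groups at very uneven levels. By the mean of all 6 libraries 1 member exceeded 100 FPKM, 15 lay between 10 and 100, 14 between 1 and 10, and 2 were below 1 and were not tested. The highest was HSD17B10, a mitochondrial dehydrogenase that also serves in tRNA processing, at 142 ± 13.7 FPKM with HYOU1 shRNA and 149 ± 40.4 FPKM in controls (SD, n = 3 each). HADHA followed in both groups. PDK4 ranked 3 among the 32 members in controls and 13 with HYOU1 shRNA. Per gene length, the lowest was ACAD11, at 0.0689, 0.0480 and 0.0907 FPKM with HYOU1 shRNA and 0.0620, 0.0941 and 0.0786 FPKM in controls.

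**Figure D2:**
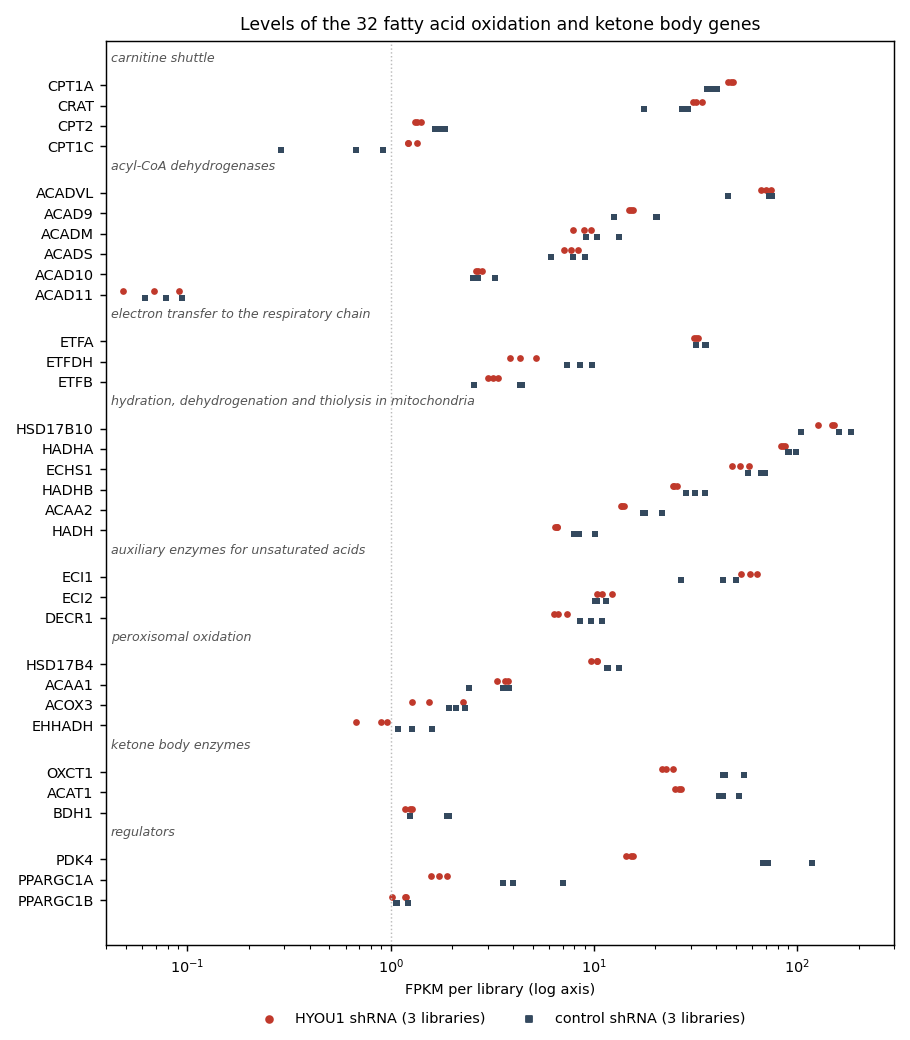
FPKM of the 32 members in each library (horizontal log axis), grouped by role, with circles for the 3 HYOU1 shRNA libraries above squares for the 3 control shRNA libraries; the dotted line marks the filter at 1 FPKM. The groups lie well apart for PDK4, PPARGC1A, OXCT1, ACAT1 and ETFDH, and overlap or nearly touch for most other members.

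With HYOU1 shRNA 5 of the 30 tested members fell and none rose, while 25 did not pass (limma, adjusted p under 0.05). Those that fell were PDK4, PPARGC1A, OXCT1, ETFDH and ACAT1. At an unadjusted p under 0.05 there were 9 lower and 2 higher members, against 14.6% and 17.0% of all tested genes. The voom test on recovered fragments, another form of limma, also called 5 lower and 0 higher. Of all 12448 tested genes, 5.66% fell and 6.60% rose. The median log2 fold change was -0.27 over the 30 members and 0.035 over all tested genes. The HYOU1 shRNA values lay wholly below the control values in 13 members and wholly above them in 3, against 20.6% and 23.8% of all tested genes. Without control replicate 1, 14 members fell and 2 rose, against 19.7% and 24.6% of all genes, and with GC content corrected for 12 fell and 2 rose, against 20.2% and 20.4%. The members that rose in these fits were CPT1A and ECI1 in both. The count of members that fell was 1 without any one of HYOU1 shRNA replicates 1, 2 and 3, 3 without control replicate 2 and 4 without control replicate 3. Calls dropped over the whole table too, where 704 of the 12448 tested genes fell with all libraries. Without HYOU1 shRNA replicates 1, 2 and 3 in turn 72, 47 and 27 genes fell, and without control replicates 2 and 3 in turn 151 and 428.

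**Figure D3:**
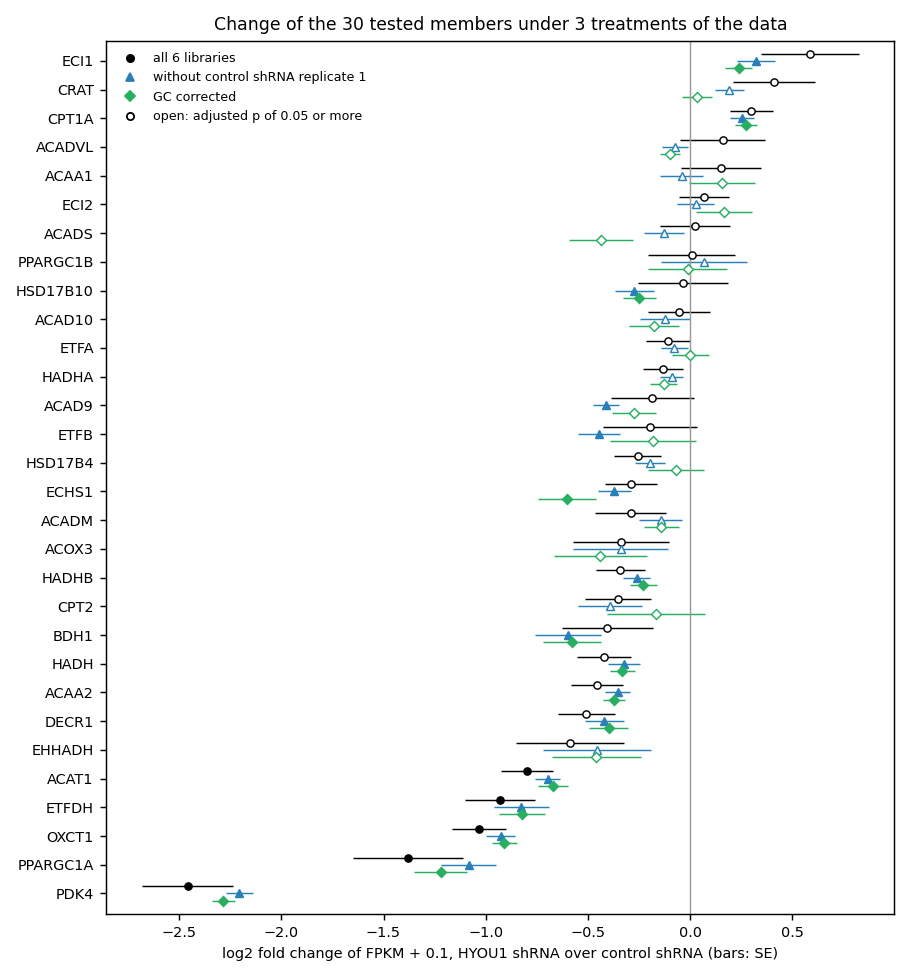
Log2 fold change of each tested member (FPKM + 0.1, HYOU1 shRNA over control shRNA, horizontal axis, bars are SE) in 3 fits, from all 6 libraries (circles), from 5 with control replicate 1 left out (triangles) and with GC content corrected for (diamonds); filled symbols are past an adjusted p of 0.05. The 5 members at the bottom are filled in each of the 3 fits, and 11 others are filled without control replicate 1, most of them also after the GC correction.

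The regulators held the 2 largest changes among tested members. PDK4, on chromosome 7 (95583499 to 95596491, GRCh38), encodes the kinase that phosphorylates and inactivates pyruvate dehydrogenase. It was at 15.5, 15.2 and 14.4 FPKM with HYOU1 shRNA and at 118, 71.6 and 67.8 FPKM in control replicates 1, 2 and 3. The groups did not overlap, and control replicate 1 was the highest. PDK4 fell to 15.0 ± 0.600 FPKM with HYOU1 shRNA, against 85.8 ± 28.0 FPKM in controls (SD, n = 3 each), a 5.71-fold lower level. That fold is the ratio of mean FPKM, and the log2 change was -2.46 ± 0.22 (SE, limma, adjusted p = 0.00446). Without control replicate 1 the log2 change was -2.21 (limma, adjusted p = 2.36e-06) and after the GC correction -2.28 (limma, adjusted p = 9.26e-06). PDK4 stayed past the threshold whichever library was left out, with an adjusted p of at most 0.0464 in limma.

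The stretch upstream of the PDK4 start is shown because PDK4 is the member with the largest change. It spans chr7:95596517-95596681 on the minus strand (RefSeq, GRCh38.p14), the 165 bases directly before the RefSeq transcript start, and capitals mark a CCAAT box read on the other strand, 117 bases before the start.
PDK4: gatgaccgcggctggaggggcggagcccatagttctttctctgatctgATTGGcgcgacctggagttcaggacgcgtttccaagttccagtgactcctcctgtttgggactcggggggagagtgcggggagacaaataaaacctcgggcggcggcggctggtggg
RefSeq windows of 250 bases upstream were at hand for 26 of the 32 members, 38 windows in all with alternative starts. Searched on both strands, CCAAT stood in 10 of these 38 windows and in 32% of 35116 windows of all genes. TGACG, the core of cAMP response elements, stood in 9 of 38 windows (23.7%) and in 21.2% of all, both for members that fell (PDK4, PPARGC1A, OXCT1, ACAT1) and for others (ACAD9, ACOX3, CPT1C, HADH), and the full palindrome TGACGTCA, which holds that core, in 3 of 38 and 1.65%, here for ACAD9 and ACOX3. The PPARGC1A window lies at a distant start outside the counted gene. The nuclear receptor core AGGTCA stood in 1 of 38 and 12.1%. Elements that contain it, TCAAGGTCA of estrogen-related receptors and AGGTCANAGGTCA of PPAR receptors, stood in 0 of 38 each and in 0.319% and 0.0171% of all. The forkhead element GTAAACA stood in 0 of 38 and 2.98%, the ETS element CCGGAA in 3 of 38 and 14.5%, and the hypoxia core ACGTG in 8 of 38 and 18.5%. The endoplasmic reticulum stress response element, which begins with a CCAAT box, stood in 0 of 38 and 0.0740%. These matches describe letters in these windows only.

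Among its relatives the difference was largest for PDK4. PDK1, PDK2 and PDK3, which encode the other pyruvate dehydrogenase kinases, were at 1.68 ± 0.199, 3.98 ± 0.447 and 4.27 ± 0.426 FPKM with HYOU1 shRNA, and at 2.08 ± 0.736, 3.47 ± 0.644 and 7.02 ± 2.31 FPKM in controls (SD, n = 3 each). None of these 3 passed the test (limma, adjusted p = 0.544, 0.483 and 0.117). PDK3 passed without control replicate 1, at -0.41 (limma, adjusted p = 0.0250). Levels between these genes rest on the gene lengths used. PDK1 and PDK3 held 2984 and 2993 fragments over all libraries, with lengths of 14883 and 4951 bases. PDK4 made up 62.3%, 60.3% and 58.1% of the summed FPKM of the 4 kinase genes in the HYOU1 shRNA libraries and 88.5%, 85.8% and 86.5% in the control libraries. This share was lower by 26.7 percentage points with HYOU1 shRNA, with no overlap (exact permutation test over libraries, two-sided, p = 0.1, the smallest that 3 against 3 can give).

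**Figure D4:**
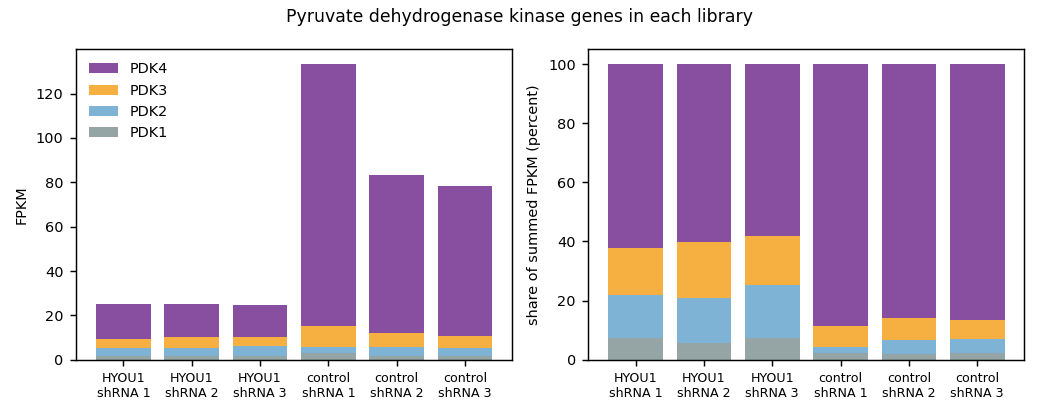
Stacked FPKM (left) and share of summed FPKM in percent (right) of PDK1, PDK2, PDK3 and PDK4 in each library, with the 3 HYOU1 shRNA libraries left of the 3 control libraries. PDK4 is the tallest segment in every library and shrinks to 58.1% to 62.3% of the sum with HYOU1 shRNA, against 85.8% to 88.5% in controls.

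PPARGC1A, on chromosome 4 (23755041 to 23904089), encodes the coactivator that drives mitochondrial and gluconeogenic genes in fasting. Its level was 1.90, 1.58 and 1.72 FPKM with HYOU1 shRNA and 7.07, 4.01 and 3.56 FPKM in control replicates 1, 2 and 3. The groups did not overlap, and control replicate 1 again stood above the others. PPARGC1A fell 2.81-fold by the ratio of mean FPKM, and its log2 change was -1.38 ± 0.27 (SE, limma, adjusted p = 0.0268). Without control replicate 1 the change was -1.08 (limma, adjusted p = 0.000478). PPARGC1A missed the threshold when HYOU1 shRNA replicate 1, 2 or 3 was left out (limma, adjusted p = 0.107, 0.121 and 0.119) or control replicate 2 was (limma, adjusted p = 0.0684). PPARGC1B, its close relative, was at 1.19, 1.01 and 1.17 FPKM with HYOU1 shRNA and 1.22, 1.06 and 1.07 FPKM in controls, and the groups overlapped (log2 fold change 0.0079, limma, adjusted p = 0.984). The ratio of PPARGC1A to PPARGC1B was 1.59, 1.56 and 1.47 with HYOU1 shRNA and 5.78, 3.76 and 3.33 in controls. On the log2 scale this ratio differed by -1.44 (exact permutation test, two-sided, p = 0.1, the smallest possible).

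Both enzymes that turn acetoacetate into acetyl-CoA fell. OXCT1, succinyl-CoA:3-ketoacid CoA transferase, activates acetoacetate outside the liver and lies on chromosome 5 (41730065 to 41870519). It was at 24.5, 22.5 and 21.7 FPKM with HYOU1 shRNA and at 54.4, 44.2 and 42.9 FPKM in controls, with no overlap. OXCT1 fell 2.06-fold by the ratio of mean FPKM, and its log2 change was -1.03 ± 0.13 (SE, limma, adjusted p = 0.00968). ACAT1, the mitochondrial thiolase that splits acetoacetyl-CoA, lies on chromosome 11 (108121516 to 108147776). Its level was 25.0, 26.7 and 26.3 FPKM with HYOU1 shRNA and 51.9, 41.2 and 43.3 FPKM in controls, again without overlap. ACAT1 fell 1.75-fold by the ratio of mean FPKM, and its log2 change was -0.80 ± 0.13 (SE, limma, adjusted p = 0.0149). Without control replicate 1 OXCT1 was at -0.93 and ACAT1 at -0.70 (limma, adjusted p = 5.32e-05 and 0.000101), and both also passed without control replicate 2 or 3. Without HYOU1 shRNA replicates 1, 2 and 3 neither was, at adjusted p of 0.0619, 0.0754 and 0.0744 for OXCT1 and 0.0963, 0.0885 and 0.0925 for ACAT1 (limma).

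BDH1 interconverts acetoacetate and beta-hydroxybutyrate. Its level was 1.25, 1.28 and 1.17 FPKM with HYOU1 shRNA and 1.25, 1.90 and 1.94 FPKM in controls, and control replicate 1 lay among the HYOU1 shRNA values. It did not pass with all libraries (log2 fold change -0.41, limma, adjusted p = 0.261), but did without control replicate 1, at -0.60 (limma, adjusted p = 0.0168), and after the GC correction, at -0.58 (limma, adjusted p = 0.0171).

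**Figure D5:**
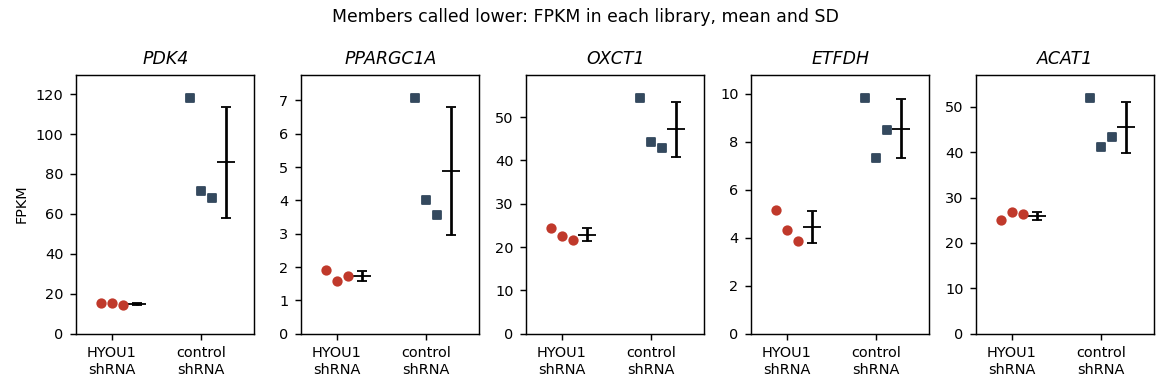
FPKM of the 5 members called lower (vertical axes from 0, one panel each) in the 3 HYOU1 shRNA libraries (circles) and the 3 control libraries (squares, replicates 1, 2 and 3 from left), with mean and SD beside the points. No panel shows overlap between the groups, and control replicate 1 is the highest point in each.

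Of the 3 genes that carry electrons from the acyl-CoA dehydrogenases to ubiquinone, 1 fell. ETFDH, the ETF dehydrogenase of the inner membrane, lies on chromosome 4 (158672125 to 158709623). It was at 5.16, 4.31 and 3.85 FPKM with HYOU1 shRNA and at 9.82, 7.33 and 8.50 FPKM in controls, with no overlap. ETFDH fell 1.92-fold by the ratio of mean FPKM, and its log2 change was -0.93 ± 0.17 (SE, limma, adjusted p = 0.0225). It overlaps PPID and C4orf46 on the other strand, and the sources used here do not give whether reads were assigned by strand. PPID averaged 9.16 FPKM with HYOU1 shRNA and 11 FPKM in controls, and C4orf46 5.48 FPKM with HYOU1 shRNA and 7.47 FPKM in controls. Their log2 changes were -0.26 and -0.40, and in both the HYOU1 shRNA values lay wholly below the control values. Neither neighbour passed the test (limma, adjusted p = 0.246 and 0.266). Whether their reads add to the ETFDH change was not tested. Of the 5 members that fell only ETFDH overlaps another gene with a mean of at least 1 FPKM. Among the 32 members 14 do, 11 of them on the opposite strand, and their levels may hold reads of the neighbour. ACADVL, ETFA, ACADM, CRAT, CPT2, DECR1 and ECI1 are among these, and HADHA and HADHB overlap each other. ETFDH was called with all libraries and without control replicate 1 (-0.82, limma, adjusted p = 0.00163). It was not called without HYOU1 shRNA replicates 1, 2 or 3 (limma, adjusted p = 0.0778, 0.115 and 0.116) or control replicates 2 or 3 (limma, adjusted p = 0.0553 and 0.0515).

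ETFA and ETFB, the subunits of the flavoprotein that hands electrons to ETFDH, did not pass. ETFA was at 31.0, 32.4 and 31.9 FPKM with HYOU1 shRNA and 35.7, 31.8 and 35.3 FPKM in controls (log2 fold change -0.11, limma, adjusted p = 0.523). ETFB was at 3.00, 3.38 and 3.18 FPKM with HYOU1 shRNA and 2.56, 4.33 and 4.41 FPKM in controls. ETFB had a log2 change of -0.20 (limma, adjusted p = 0.590), and of -0.45 without control replicate 1 (limma, adjusted p = 0.00836). The log2 ratio of ETFA to ETFB was 3.32 ± 0.0530 with HYOU1 shRNA and 3.23 ± 0.504 in controls (SD, n = 3 each, exact permutation test, two-sided, p = 0.9).

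None of the 6 acyl-CoA dehydrogenase genes, whose products open each turn of the cycle on chains of different length, passed with all libraries, and none of the 5 tested had an unadjusted p under 0.05 (limma). ACADVL, for very long chains, was at 66.6, 69.9 and 74.1 FPKM with HYOU1 shRNA and 45.4, 72.4 and 75.3 FPKM in controls. ACADM, for medium chains, was at 8.97, 9.64 and 7.84 FPKM with HYOU1 shRNA and 13.2, 10.3 and 9.11 FPKM in controls. The groups overlapped in both, with control replicate 1 at opposite ends. ACADS, for short chains, averaged 7.74 ± 0.623 FPKM with HYOU1 shRNA and 7.69 ± 1.44 FPKM in controls (SD, n = 3 each). ACAD10, a family member with a less settled substrate, averaged 2.71 ± 0.0853 FPKM with HYOU1 shRNA and 2.83 ± 0.371 FPKM in controls. ACAD9, which also helps to assemble respiratory complex I, was at 14.9, 15.2 and 15.6 FPKM with HYOU1 shRNA and 12.6, 20.4 and 20.2 FPKM in controls. ACAD9 had a log2 change of -0.18 (limma, adjusted p = 0.565) and of -0.41 without control replicate 1 (limma, adjusted p = 0.00117). With both the GC correction and control replicate 1 left out, 2937 of all 12448 tested genes fell. In that fit ACAD9, ACADS and ACADVL had log2 changes of -0.40, -0.25 and -0.11 (limma, adjusted p = 0.000684, 0.0239 and 0.0487).

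The 6 genes of the later matrix steps all had a log2 fold change below 0, between -0.45 and -0.033, except that HSD17B10 was above 0 with TPM scaling (0.0051) and without HYOU1 shRNA replicate 1 (0.048) or control replicate 2 (0.040) or 3 (0.13), and none passed with all libraries, although 3 had an unadjusted p under 0.05 (limma). Without control replicate 1, 5 of the 6 fell, against 19.7% of all tested genes, and the same number did after the GC correction, against 20.2%. ACAA2, the thiolase that ends the cycle, was at 14, 13.7 and 13.5 FPKM with HYOU1 shRNA and 21.7, 17.8 and 17.4 FPKM in controls. HADH, the dehydrogenase for short and medium chains, was at 6.60, 6.54 and 6.45 FPKM with HYOU1 shRNA and 10.1, 7.95 and 8.42 FPKM in controls. Neither gene showed overlap. ACAA2 had a log2 change of -0.45 (limma, adjusted p = 0.0651) and fell by 0.35 without control replicate 1 (limma, adjusted p = 0.00253). HADH had one of -0.42 (limma, adjusted p = 0.0841) and fell by 0.32 in that fit (limma, adjusted p = 0.0105).

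HADHA and HADHB encode the subunits of the trifunctional protein, which handles long chains, and lie head to head on chromosome 2. HADHA was at 83.3, 86.8 and 85.3 FPKM with HYOU1 shRNA and 98.7, 89.9 and 91.4 FPKM in controls. HADHB was at 24.8, 25.5 and 24.5 FPKM with HYOU1 shRNA and 35.2, 31.4 and 28.4 FPKM in controls. Neither gene's groups overlapped. The ratio of HADHA to HADHB was 3.35, 3.41 and 3.49 with HYOU1 shRNA and 2.80, 2.86 and 3.21 in controls, a difference of 0.21 on the log2 scale (exact permutation test, two-sided, p = 0.1, the smallest possible). HADHB fell without control replicate 1, by 0.26 (limma, adjusted p = 0.0135), and HADHA had a log2 change of -0.091 in that fit (limma, adjusted p = 0.214). ECHS1, the short-chain hydratase, was at 47.9, 52.5 and 57.6 FPKM with HYOU1 shRNA and 57.4, 69.3 and 66.6 FPKM in controls, where the highest HYOU1 shRNA value passed the lowest control value. ECHS1 fell by 0.37 without control replicate 1 (limma, adjusted p = 0.00711) and HSD17B10 by 0.27 (limma, adjusted p = 0.0480).

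The auxiliary enzymes that let unsaturated fatty acids enter the cycle differed in sign. ECI1, an enoyl-CoA isomerase, was at 52.9, 58.6 and 63.3 FPKM with HYOU1 shRNA and 26.8, 43.1 and 50.1 FPKM in controls, with no overlap. It did not pass with all libraries (log2 fold change 0.59, limma, adjusted p = 0.150), and rose by 0.32 without control replicate 1 (limma, adjusted p = 0.0252) and by 0.24 after the GC correction (limma, adjusted p = 0.0267). DECR1, the dienoyl-CoA reductase, was at 6.66, 6.35 and 7.33 FPKM with HYOU1 shRNA and 10.9, 8.55 and 9.66 FPKM in controls, again with no overlap. Its log2 fold change was -0.51 (limma, adjusted p = 0.0612), and it fell by 0.42 without control replicate 1 (limma, adjusted p = 0.00819). ECI2, the isomerase of mitochondria and peroxisomes, was at 11.2 ± 0.945 FPKM with HYOU1 shRNA and 10.6 ± 0.739 FPKM in controls (SD, n = 3 each), and did not pass in any of the 3 fits.

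The carnitine shuttle showed no call with all libraries, where 1 of 3 tested genes, CPT1A, had an unadjusted p under 0.05 (limma), and its members differed in sign. CPT1A, the liver-type carnitine palmitoyltransferase and the controlled entry step, was at 48.3, 45.8 and 46.9 FPKM with HYOU1 shRNA and 35.9, 40.2 and 38.5 FPKM in controls. All HYOU1 shRNA values lay above all control values. CPT1A had a log2 change of 0.30 (limma, adjusted p = 0.107). It rose by 0.26 without control replicate 1 (limma, adjusted p = 0.00874) and by 0.27 after the GC correction (limma, adjusted p = 0.00725). CPT2, which acts on the matrix side, was at 1.31, 1.34 and 1.41 FPKM with HYOU1 shRNA and 1.66, 1.77 and 1.84 FPKM in controls. These groups did not overlap either, with a log2 change of -0.35 (limma, adjusted p = 0.188). CRAT, carnitine acetyltransferase, was at 30.5, 31.6 and 33.8 FPKM with HYOU1 shRNA and 17.7, 27 and 28.9 FPKM in controls. CRAT had a log2 change of 0.41 (limma, adjusted p = 0.214), of 0.19 without control replicate 1 and of 0.034 after the GC correction.

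CPT1C, the brain-enriched relative of CPT1A found at the endoplasmic reticulum, had a mean under 1 FPKM and was not tested with the others. Its level was 1.21, 1.21 and 1.34 FPKM with HYOU1 shRNA and 0.290, 0.674 and 0.912 FPKM in controls, with no overlap. With the filter lowered to 0.1 FPKM its log2 fold change was 1.00 (limma, adjusted p = 0.156). CPT1A exceeded CPT1C by 39.9, 37.9 and 35.1 times with HYOU1 shRNA and by 124, 59.6 and 42.2 times in controls (exact permutation test on the log2 ratio, two-sided, p = 0.1, the smallest possible). CPT1A was thus the main CPT1 transcript of the pair in every library.

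Peroxisomal oxidation, which shortens very long and branched chains, gave no call with all libraries, without control replicate 1 or after the GC correction. At an unadjusted p under 0.05 these fits gave 0, 1 and 0 of the 4 genes, the 1 being HSD17B4 (limma). With both the GC correction and control replicate 1 left out, HSD17B4 fell by 0.23 (limma, adjusted p = 0.0167). HSD17B4, the bifunctional enzyme for these substrates, was at 10.4, 10.4 and 9.71 FPKM with HYOU1 shRNA and 13.2, 11.6 and 11.7 FPKM in controls, with no overlap (log2 fold change -0.26, limma, adjusted p = 0.185). EHHADH, the other bifunctional enzyme and a known PPARA target, was at 0.963, 0.672 and 0.900 FPKM with HYOU1 shRNA and 1.6, 1.28 and 1.09 FPKM in controls. EHHADH had a log2 change of -0.59 (limma, adjusted p = 0.181), rested on as few as 58 fragments in a library, and also showed no overlap. ACOX3, an acyl-CoA oxidase for branched chains, averaged 1.70 ± 0.510 FPKM with HYOU1 shRNA and 2.12 ± 0.195 FPKM in controls. ACAA1, the peroxisomal thiolase, averaged 3.58 ± 0.226 FPKM with HYOU1 shRNA and 3.27 ± 0.733 FPKM in controls (SD, n = 3 each).

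Among 138 other genes of these pathways 110 were tested, of which 7 fell, 8 rose and 95 did not pass, shares close to the 5.66% and 6.60% of all tested genes. The calls were 28 lower and 22 higher with control replicate 1 left out, against 19.7% and 24.6% of all tested genes. With GC content corrected for they were 27 lower and 17 higher, against 20.2% and 20.4%. That a gene is named here is not evidence that its list stands apart. With all libraries the median log2 fold change was -0.093 over the 110 tested genes and 0.035 over all tested genes. PPARA fell to 1.51 ± 0.149 FPKM with HYOU1 shRNA, against 3.66 ± 0.481 FPKM in controls, and SLC25A20 fell to 6.51 ± 0.590 FPKM with HYOU1 shRNA, against 12.9 ± 1.42 FPKM in controls (SD, n = 3 each). Of 23 regulators, CREB3L3, a membrane-bound transcription factor of liver and gut that acts with PPARA, rose by 1.83. Of 13 genes of pyruvate dehydrogenase and its control, DLAT, its acetyltransferase subunit, fell by 0.93, and PDP2, a phosphatase that opposes the PDK kinases, rose by 0.60. Of 14 PPAR targets outside oxidation 7 were tested, and 3 (FGF21, CYP4A11 and G0S2) were at 0 in every library. Of the 7 tested 3 rose and none fell, against 6.60% and 5.66% of all tested genes. At an unadjusted p under 0.05, 4 were higher and 0 lower (limma), against 17.0% and 14.6% of all. The 3 that rose were TXNIP, which binds thioredoxin and limits glucose uptake, by 1.66, MGLL, monoglyceride lipase, by 0.78 and PLIN2, a lipid droplet coat protein, by 0.55. Without control replicate 1, 4 of the 7 rose and 1 fell, and the same numbers did after the GC correction. PNPLA2 had a log2 change of 0.90 (limma, adjusted p = 0.103). It rose by 0.53 without control replicate 1 (limma, adjusted p = 0.000695) and by 0.44 after the GC correction (limma, adjusted p = 0.00243). ACOT1, an acyl-CoA thioesterase with the near-identical neighbour ACOT2, had a log2 change of -0.54 (limma, adjusted p = 0.266). It fell by 0.89 without control replicate 1 (limma, adjusted p = 0.000394) and by 0.78 after the GC correction (limma, adjusted p = 0.00572). ANGPTL4 and HILPDA had log2 changes of 0.15 and 0.070 with all libraries (limma, adjusted p = 0.530 and 0.843). PPAR receptors are not the only regulators of these genes.

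Of 27 genes of peroxisomal oxidation, import and biogenesis, CAT, catalase, fell by 0.87 and PEX19 rose by 0.48. Of 15 other mitochondrial acyl-CoA enzymes, MCCC2 and IVD, both of leucine breakdown, fell by 1.1 and 0.64, and MCEE, of propionate breakdown, rose by 0.87. Of 6 genes of carnitine supply, SLC22A4 fell by 0.68 besides SLC25A20. Of 14 genes of fatty acid uptake and activation, ACSM3, a medium-chain acyl-CoA synthetase, rose by 0.90. No gene of 5 passed among ketone body enzymes and carriers (1 at an unadjusted p under 0.05, limma), and SLC16A1, which encodes a transporter of lactate and ketone bodies, had a log2 change of -0.17. All 15 genes that changed were past the threshold without control replicate 1 too. Without HYOU1 shRNA replicates 1, 2 and 3 only TXNIP remained of the 15. Without control replicate 2, CREB3L3, MCCC2, PPARA and TXNIP remained, and without control replicate 3, 9 of the 15 did.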

How the data were processed

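RNA selected with oligo(dT) beads, per the labels' protocols, was sequenced in 6 libraries, 3 with a HYOU1 shRNA and 3 with a control shRNA. The authors deposited 1 table of FPKM values, scaled by gene length and library total per the file headers, and its values came in whole fragments within a tolerance of 0.01. The sources used here do not name the aligner, the counter or any strand setting. All 58735 identifiers and coordinates matched GENCODE 29 on GRCh38.

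Values were used as deposited, as log2(FPKM + 0.1). The filter kept 12448 genes, those that averaged 1 FPKM or more over the 6 libraries. Groups were compared across all these genes with limma 3.58.1 in R 4.3.3 (variance trend, robust priors). Calls were made at an adjusted p under 0.05, after Benjamini and Hochberg. Fold changes on this scale understate changes of weakly expressed genes. "Fell by" and "rose by" give log2 changes. Folds are ratios of mean FPKM and need not equal the log2 changes. Ratios within libraries were compared by exact permutation. For the GC correction, lowess (span 0.3) was run per library on each gene's difference from its mean against GC content of the longest transcript, and the fitted value was taken off. Fragments recovered from the table ran from 16893091 to 18233240 per library, and 3 fragments were worth 0.160 to 0.176 FPKM for a gene of 1 kb, which covers counting error only.

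The members, gene lists and tests were chosen with earlier results of these data known. By rule, library values were given for called members, for the 3 uncalled members with the largest change and for up to 6 called only without control replicate 1 or after the GC correction. Library values of other members, and mention of overlapping genes, ACOT1, PNPLA2 and single marker genes, were chosen after seeing them. Of each other pathway list, up to 3 called genes with the largest change were named, or if there was none the gene of highest mean. HYOU1, PPARA, SLC25A20 and PDK1 to PDK3 were named whatever their result. MMUT was matched by identifier. A promoter was printed where it lay at the start of the counted gene and over no annotated exon. Alternatives were 2 pseudocounts, 3 filters, 2 scalings, the replicate block, the GC correction, voom on recovered fragments, no variance trend and leaving out each library.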

Additional observations from a re-analysis of the deposited data

How the results depend on the processing

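The 5 members that fell with all libraries (limma) also did so under both other pseudocounts, a filter of 0.1 FPKM, TPM scaling, quantile normalization, voom, no variance trend and the GC correction. With no filter PPARGC1A and ETFDH missed the threshold (limma, adjusted p = 0.0617 and 0.0533), leaving 3, and a filter of 5 FPKM did not test PPARGC1A. The count of lower members was 12 with the GC correction and 17 with that correction without control replicate 1, and that of higher members 2 in both. Leaving out each library gave 1 to 14 lower and 0 to 2 higher members. Over all genes 413 fell and 525 rose with the filter of 5 FPKM, 337 and 433 with no filter, 2513 and 2535 with the GC correction, and 2937 and 3112 with it without control replicate 1. Leaving out each library gave 27 to 2456 lower and 22 to 3062 higher genes. Of the other pathway genes, 27 fell and 17 rose with the GC correction and 36 and 24 with it without control replicate 1. The number that rose was 4, 5 and 3 with a filter of 0.1 FPKM, of 5 FPKM and none, and leaving out each library gave 0 to 28 lower and 1 to 22 higher. The cause of these shifts was not tested.

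The replicate numbers of the 2 groups were not taken as pairs. Deviations of libraries numbered 1, 2 and 3 correlated with those of the same number at 0.12, -0.093 and 0.17, and not every library correlated best with its own number. With the numbers as a replicate block 415 genes fell and 525 rose, the 5 members kept their call, and 4 other pathway genes rose. With the block and the GC correction 2222 genes fell and 2282 rose, with 12 lower and 1 higher members and 24 and 14 other pathway genes.

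Changes of sign touched genes that were not called with all libraries. With the GC correction, block or not, ACADS turned to -0.44, ACADVL to -0.099, ETFA to 0.00072, PPARGC1B to -0.012 and PDK2 to -0.089. With that correction and without control replicate 1, ACADS was at -0.25 and ACADVL at -0.11, both past the threshold (limma, adjusted p = 0.0239 and 0.0487). In that fit ACAA1 was at -0.022 and PDK2 at -0.0068. ACADS turned to -0.017 with quantile normalization and HSD17B10 to 0.0051 with TPM scaling. Leaving out each library gave log2 changes on both sides of 0 for ACADS (-0.13 to 0.14), ACADVL (-0.074 to 0.29), ACAD10 (-0.12 to 0.047), HSD17B10 (-0.27 to 0.13), ACAA1 (-0.041 to 0.27), PPARGC1B (-0.032 to 0.075), PDK1 (-0.39 to 0.015) and the ETFA to ETFB ratio (-0.084 to 0.38). With 3 libraries a group, differences within the library spread were not detectable.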
